A study of Danio rerio with 10 samples.

Results

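Vertebrate cells make retinoic acid from vitamin A (retinol), and the genes described here encode the proteins that carry retinol, turn it into retinoic acid, bind that acid and break it down. The 25 genes were chosen by name from the 14781 genes of the deposited count table: all names beginning with cyp26, crabp, aldh1a, rdh1, dhrs3 or rbp with a digit from 1 to 7, followed only by letters and digits. Retinoic acid receptors were left out of the set. The study measured messenger RNA in 10 libraries from sorted pituitary cells of zebrafish (Danio rerio), 5 AMCA-positive and 5 AMCA-negative. All fish were TL males, 12 months old, and all had been injected with 10 µL of 4.6 mM β-Ala-Lys-Nε-AMCA, a dipeptide that carries a blue fluorescent dye. Pituitaries were removed 3 hours later in 5 pools of 7, and cells inside and outside the dye gate were collected in 2 separate sorts, with 1 library of each kind per pool. Positive cells are named pituicytes in the labels, the astroglia-like cells of the neurohypophysis, and negative cells are named non-pituicytes. In each group replicates 1 and 2 were on plate 1 and replicates 3, 4 and 5 on plate 2. A library therefore holds the RNA of many cells from pooled fish, of whatever types the dye gate let through.

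In the usual account of the pathway, Rbp4 carries retinol in blood, cellular retinol-binding proteins hold it inside the cell, and retinol dehydrogenases such as Rdh10 oxidise it to retinal. Aldh1a enzymes then oxidise retinal to retinoic acid, while Dhrs3 reduces retinal back to retinol. Retinoic acid passes to nuclear receptors and is bound in the cytoplasm by Crabp proteins, and Cyp26 enzymes hydroxylate it for removal. Cells that express Cyp26 enzymes are known as sinks that limit retinoic acid signalling around them.

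Levels are given as CPM, the count of a gene scaled to the TMM-adjusted size of its library. Library totals ran from 4250948 to 6068781 counts, and 11308 to 11817 genes had a count in AMCA-positive against 7079 to 9056 in AMCA-negative libraries. Red cell markers took 0.0468 to 0.140% of AMCA-positive and 22.6 to 40.4% of AMCA-negative counts. Astroglial markers were looked at for the labelled cell type. Of these, 13 of 15 tested were higher in AMCA-positive libraries (0.365 to 0.798% of counts against 0.0270 to 0.0711%). No AMCA-negative count was found for slc1a3a and sox9b. Other markers were in the AMCA-positive libraries too. Leukocyte markers took 1.42 to 3.95% against 0.0496 to 0.208%, with 12 of 15 tested higher. Mural and fibroblast markers took 0.0620 to 0.153% against 0.000247 to 0.00770%, with 8 of 13 higher, but pdgfrb and fbln1 had no count in either group. Epithelial markers had 7 of 11 higher, at 0.475 to 0.685% against 0.00499 to 0.0503%, while endocrine markers overlapped between the groups at 1.24 to 3.84% against 0.284 to 5.04%, with 2 of 13 higher. Endothelial markers took 0.0133 to 0.0239% against 0.0119 to 0.0517%, with 5 of 13 higher and 1 lower. Neuronal markers took 0.0116 to 0.0189% against 0.00391 to 0.0189%, with none of 6 tested called. Over all genes tested 13.1% were higher, a share near that of the endocrine markers. Among genes that passed the filter on low counts through AMCA-positive libraries alone it was 20.1%. Of the markers tested 13 astroglial, 12 leukocyte, 13 mural and fibroblast, 9 epithelial, 5 endocrine, 7 endothelial and 3 neuronal ones had passed that way. Such markers could hardly be lower, so the numbers of markers called are no check of the labelled cell type. The part of the other cell types in the results was not tested. In such mixed libraries fewer cells of a type and less RNA per cell cannot be told apart.

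Of the 25 genes 24 had at least 1 count, and rbp2b had none in any library. The filter on low counts kept 15, and 9 of these were higher in AMCA-positive libraries and none lower (quasi-likelihood F test of edgeR on 5 libraries a group, plate in the model, with a Benjamini-Hochberg threshold of 0.05); no tested member had a log2 fold change below 0. Over all 9094 genes tested 13.1% were higher and 7.06% lower. All members that passed the filter except crabp1a passed it through the AMCA-positive libraries alone, and of the 5042 genes that did so 20.1% were higher. Such members could hardly be lower, so these counts and the median below account for the members and are no support for a difference. The median log2 fold change was 6.25 over the 15 members tested and 0.51 over all genes tested. In 14 members no AMCA-negative library reached the lowest AMCA-positive one, and the same held for 14.9% of the 13723 genes with a count. A filter that takes the design into account, chosen after the data were seen, kept 20 members, of which 14 were higher against 16.2% of all genes it kept. Within plate 1, with 2 libraries per group, 3 of 17 members tested passed (cyp26b1, crabp1a and rbp4) against 0.309% of all genes tested there, and within plate 2 it was 11 of 18 against 14.8%. The members added by the filter on the design had few or no AMCA-negative counts and could hardly be lower. The counts with that filter and within each plate are therefore no support for a difference either. The adjusted p-values given below with that filter for crabp2a, dhrs3b, rbp2a and rbp7b have the same limit and are no support.

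**Figure D1:**
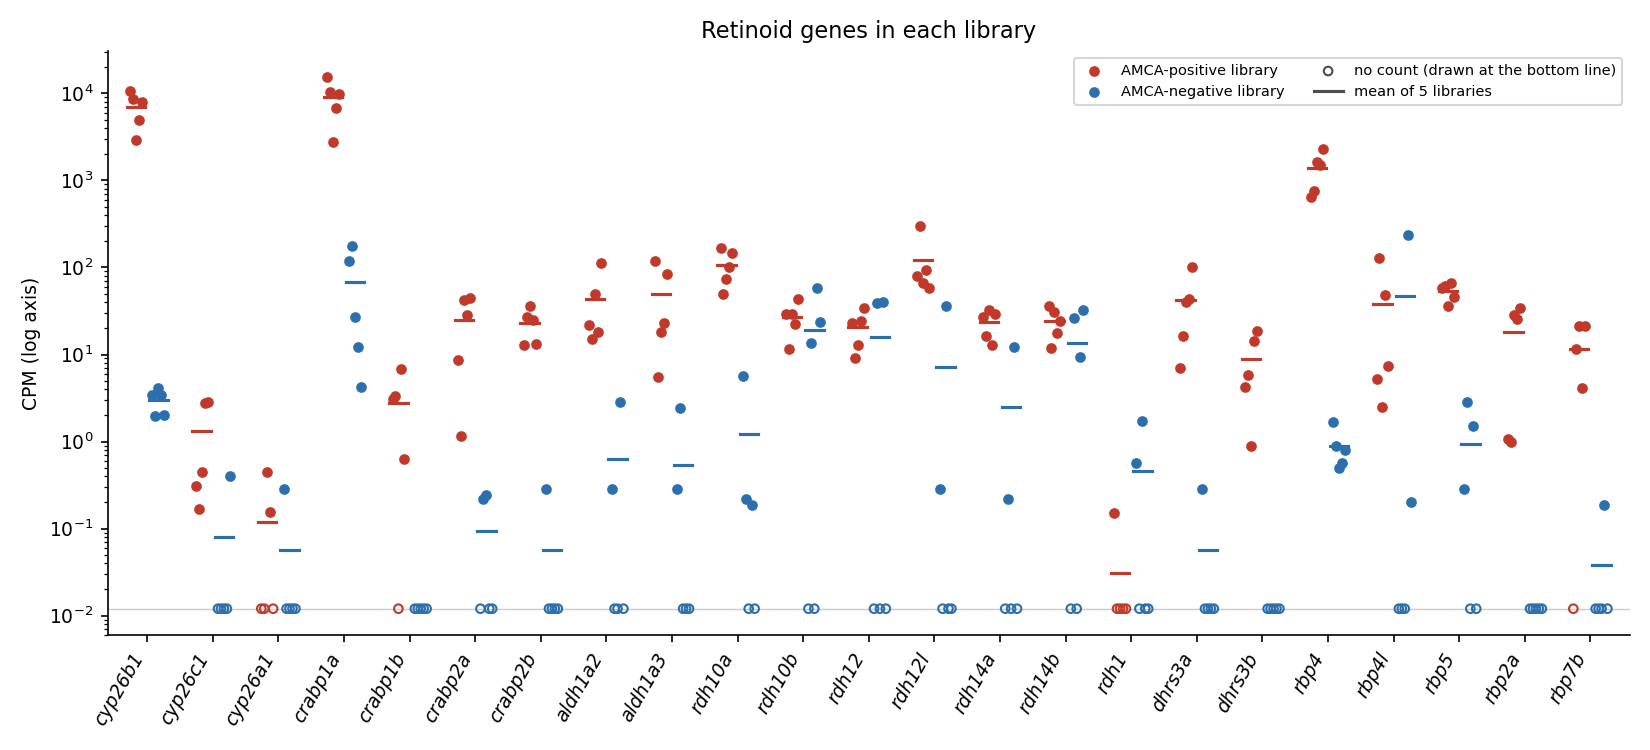
CPM of 23 retinoid genes in each library on a log axis, with AMCA-positive libraries in red, AMCA-negative libraries in blue, a bar for the mean of 5 libraries and open circles at the bottom line for libraries with no count. The genes cyp26b1, crabp1a and rbp4 reach means of 7017, 9020.4 and 1373 CPM in AMCA-positive libraries. Among the members tested the groups overlap in rdh10b, rdh12, rdh14b and rbp4l. Among those left out by the filter they are not fully apart in cyp26a1, cyp26c1, crabp1b, rdh1 and rbp7b.

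Among the enzymes that break retinoic acid down, cyp26b1 was abundant in every AMCA-positive library and the other 2 members were nearly absent. In AMCA-positive libraries cyp26b1 stood at 10671, 8566, 2949, 4952 and 7946 CPM (replicates 1 to 5). In AMCA-negative libraries cyp26b1 stood at 3.38, 1.98, 4.17, 3.40 and 2.02 CPM. The lowest AMCA-positive library thus held 708 times the level of the highest AMCA-negative one, and all AMCA-negative libraries held a small, similar amount. The log2 fold change of cyp26b1 was 11.12 ± 0.50 (SE; adjusted p = 8.25e-07 by edgeR), with 11.58 within plate 1 and 10.69 within plate 2. With limma-voom and quality weights cyp26b1 passed close to the threshold (log2 fold change 11.09, limma adjusted p = 0.0400). The gene took 0.837 ± 0.369% of all AMCA-positive counts (SD, n = 5).

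The paralog cyp26a1, which in embryos is the family member best known for being induced by retinoic acid, had 4 counts over all AMCA-positive and 1 over all AMCA-negative libraries. The ratio was 2.79 (95% counting interval 0.276 to 138), so no difference was detectable at this depth. The third member, cyp26c1, had 2, 1, 3, 18 and 18 counts in AMCA-positive libraries and 2 in AMCA-negative ones, both in replicate 5, a ratio of 14.7 (95% counting interval 3.81 to 125). Its AMCA-positive counts came mostly from replicates 4 and 5. It was left out by the filter; with no filter the edgeR adjusted p of cyp26c1 was 0.116, and in the authors' deposited table it was 0.0457. That table, in which 22 members have an adjusted p, calls 15 of them higher and none lower, against 22.3% of its genes higher. Like the counts of members above, this number is no support for a difference. Such intervals and floors describe counting error alone, because copies of 1 cDNA molecule made during amplification cannot be told from separate molecules.

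The retinoic acid-binding proteins showed the same direction, with crabp1a at a high level and its 3 relatives at low ones. In AMCA-positive libraries crabp1a stood at 15309, 10426, 2777, 6825 and 9764 CPM. The AMCA-negative values of crabp1a were 118, 179, 27.0, 12.3 and 4.24 CPM. The groups did not overlap, and both AMCA-negative libraries of plate 1 were above the 3 of plate 2. On the log2 scale crabp1a differed by 7.87 ± 0.78 (SE; adjusted p = 6.86e-05 by edgeR), with 6.24 within plate 1 and 8.81 within plate 2. With limma-voom and quality weights the call on crabp1a was lost (log2 fold change 7.64, limma adjusted p = 0.127).

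Both zebrafish copies of crabp2, whose mammalian counterpart hands retinoic acid to nuclear receptors, were nearly absent from AMCA-negative libraries, with 2 counts of crabp2a and 1 of crabp2b there. The level of crabp2b was 12.8, 27.0, 36.6, 24.9 and 13 CPM in AMCA-positive libraries, and its single AMCA-negative count lay in replicate 1. The ratio for crabp2b was 515-fold (95% counting interval 92.1 to 20353; edgeR adjusted p = 0.00179). The level of crabp2a was far less even, at 8.54, 1.17, 42.2, 28.6 and 44.2 CPM, and low on plate 1. The filter left crabp2a out, and the ratio was 283-fold (95% counting interval 78.2 to 2345; edgeR adjusted p = 0.00669 with the filter on the design). The fourth gene, crabp1b, had 88 AMCA-positive counts in 4 of 5 libraries and none in AMCA-negative libraries, at least 20.6-fold higher against a floor of 3 counts over the 5 AMCA-negative libraries. Reads could be split between such paralogs, so the level of each is uncertain to that extent.

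**Figure D2:**
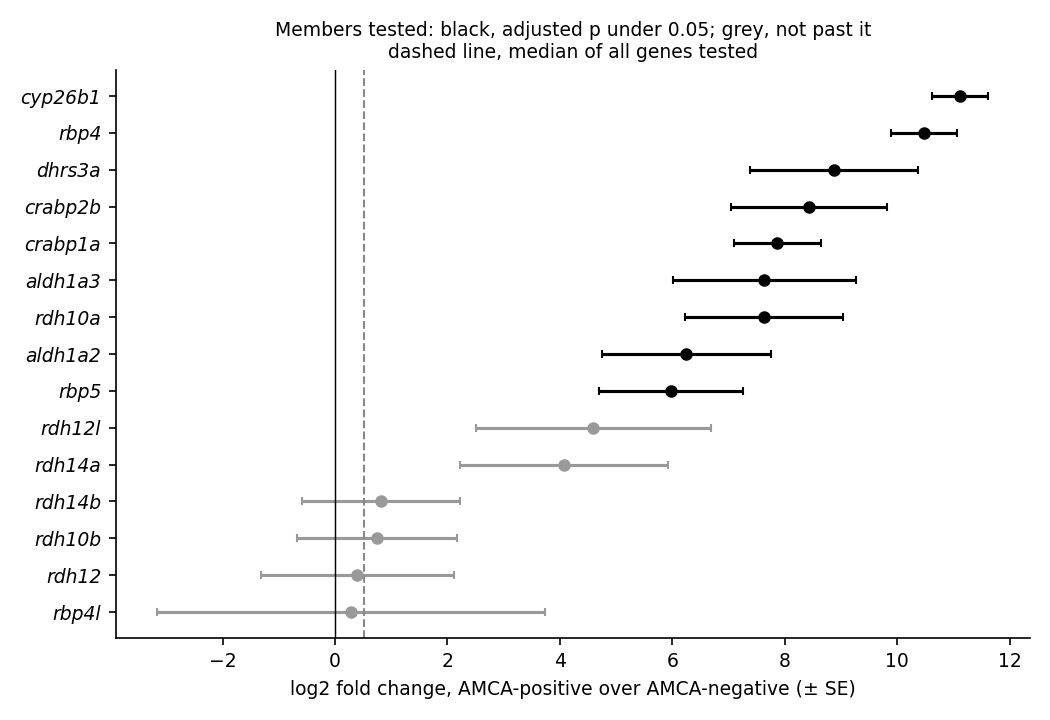
Log2 fold change of AMCA-positive over AMCA-negative libraries for the 15 members tested, with bars for ± SE, black points for members past the adjusted threshold of 0.05 and grey points for the others. The 9 black points lie between 5.98 for rbp5 and 11.12 for cyp26b1, and the dashed line marks the median of all genes tested, 0.51.

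Of the genes of retinoic acid synthesis, aldh1a2, aldh1a3 and rdh10a were higher in the same libraries. The other retinol dehydrogenases tested did not pass in the main edgeR fit. Both aldehyde dehydrogenase genes that make retinoic acid from retinal rose. In AMCA-positive libraries aldh1a2 stood at 22.1, 15.0, 49.0, 18.1 and 114 CPM. In AMCA-negative libraries aldh1a2 had 1 count in replicate 1 (0.282 CPM), 15 in replicate 4 (2.83 CPM) and none in the other 3. The groups did not overlap, and AMCA-positive replicate 5 was the highest by far. For aldh1a2 the log2 fold change was 6.25 ± 1.50 (SE; adjusted p = 0.0127 by edgeR), with 6.67 within plate 1 and 5.94 within plate 2, neither of which passed alone.

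For aldh1a3 the AMCA-positive values were 119, 5.50, 18.4, 23.1 and 83.1 CPM, a 21.6-fold range. Its AMCA-negative values were 0.282 CPM in replicate 1, 2.42 in replicate 2 and no count in replicates 3, 4 and 5. The lowest AMCA-positive library was only 2.27 times above the highest AMCA-negative one, and those libraries were both on plate 1. The log2 fold change of aldh1a3 was 7.64 ± 1.64 (SE; adjusted p = 0.00658 by edgeR), with 5.32 within plate 1 (not past the test) and 10.88 within plate 2.

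Of the retinol dehydrogenases tested, only rdh10a passed in the main edgeR fit. It is one of the 2 zebrafish copies of the main retinol-oxidising enzyme of embryos. Its AMCA-positive values were 166, 49.3, 74.6, 100 and 148 CPM. In AMCA-negative libraries rdh10a had 20 counts in replicate 1 (5.64 CPM), 1 in each of replicates 2 and 4 and none in replicates 3 and 5. On the log2 scale rdh10a differed by 7.63 ± 1.40 (SE; adjusted p = 0.00326 by edgeR), with 4.90 within plate 1 (not past the test) and 10.22 within plate 2.

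The second copy, rdh10b, did not pass: its level was 29.3, 11.7, 28.9, 22.1 and 42.9 CPM in AMCA-positive and 0, 13.4, 0, 58.6 and 23.8 CPM in AMCA-negative libraries. For rdh10b the log2 fold change was 0.74 ± 1.42 (SE; adjusted p = 0.788 by edgeR). The groups overlapped, since 3 AMCA-negative libraries held amounts like those of AMCA-positive ones while the other 2 held none. Whether the 2 copies differ in their fold change was not tested.

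The same on-or-off pattern in AMCA-negative libraries was seen in rdh12 and rdh14b, short-chain dehydrogenase genes whose mammalian relatives act on retinal and retinol. The level of rdh12 ran from 9.16 to 34.0 CPM in AMCA-positive libraries, and in AMCA-negative ones it was 38.7 and 39.9 CPM in replicates 2 and 4 with no count in the other 3. The level of rdh14b ran from 11.8 to 36.3 CPM, against 0, 26.6, 0, 9.45 and 32.3 CPM. Neither passed, with log2 fold changes of 0.39 ± 1.72 for rdh12 (SE; adjusted p = 0.914 by edgeR) and 0.82 ± 1.41 for rdh14b (SE; adjusted p = 0.762 by edgeR).

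In 2 further genes of the class the call changed when a single AMCA-negative library was left out, and also with other fits of all libraries. The gene rdh12l stood at 80.5, 303, 66.0, 94.2 and 58.2 CPM in AMCA-positive libraries, and its AMCA-negative values were 0.282 CPM in replicate 1, 35.8 in replicate 3 and no count elsewhere. The log2 fold change of rdh12l was 4.59 ± 2.09 (SE; adjusted p = 0.166 by edgeR), and without AMCA-negative replicate 3 it was 10.63 (edgeR adjusted p = 1.44e-04). With all libraries kept, rdh12l also passed with neighbouring wells as a block (8.76, edgeR adjusted p = 0.0203) and by limma-voom with quality weights (7.93, limma adjusted p = 0.00166). Of rdh14a there were 26.8, 16.2, 32.4, 12.9 and 29.4 CPM in AMCA-positive libraries, against 0.220 CPM in AMCA-negative replicate 2, 12.1 in replicate 4 and no count elsewhere. For rdh14a the log2 fold change was 4.07 ± 1.85 (SE; adjusted p = 0.166 by edgeR), and without AMCA-negative replicate 4 it was 8.23 (edgeR adjusted p = 0.00344). It passed by limma-voom too (5.80, limma adjusted p = 0.00166). In neither gene did the groups overlap. The library left out held 146 of the 147 AMCA-negative counts of rdh12l and 64 of the 65 of rdh14a. The calls without that library are therefore no support for a difference. The last gene of the class, rdh1, had 1 AMCA-positive and 9 AMCA-negative counts, was left out by the filter and had an edgeR adjusted p of 0.258 with no filter.

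The dhrs3 genes, named for the reverse step from retinal to retinol, were found almost only in AMCA-positive libraries. Dhrs3 is also known in zebrafish embryos as a gene that retinoic acid induces. In AMCA-positive libraries dhrs3a stood at 7.01, 16.2, 40.1, 43.5 and 103 CPM, and AMCA-negative libraries had 1 count in all, in replicate 1. The 3 libraries of plate 2 were above both of plate 1. The ratio for dhrs3a was 937-fold (95% counting interval 168 to 37037; edgeR adjusted p = 0.00210). Its paralog dhrs3b stood at 4.27, 5.83, 0.888, 14.4 and 18.8 CPM. It had no count in AMCA-negative libraries, so it was at least 66.1-fold higher. The filter left dhrs3b out (edgeR adjusted p = 0.0121 with the filter on the design).

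Among retinol carriers, rbp4, the secreted carrier of retinol in blood, was the member with the second largest log2 fold change of those tested. The AMCA-positive libraries held 637, 747, 1637, 1518 and 2324 CPM of rbp4. The AMCA-negative libraries held 1.69, 0.879, 0.490, 0.567 and 0.807 CPM of rbp4. The lowest AMCA-positive library was 377 times above the highest AMCA-negative one. The order of the plates was opposite in the 2 groups. In AMCA-negative libraries it rests on 6 and 4 counts on plate 1 and 2, 3 and 4 counts on plate 2. For rbp4 the log2 fold change was 10.47 ± 0.59 (SE; adjusted p = 1.64e-06 by edgeR), with 8.85 within plate 1 and 11.47 within plate 2.

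The related gene rbp4l behaved unlike rbp4 in these libraries. Its AMCA-positive values were 5.18, 127, 2.52, 48.7 and 7.47 CPM, and AMCA-negative replicate 4 alone held 235 CPM where the other 4 held at most 0.202. The log2 fold change of rbp4l was 0.29 ± 3.45 (SE; adjusted p = 0.970 by edgeR), and it was 8.68 without AMCA-negative replicate 4 (edgeR adjusted p = 0.00987). That replicate held 1245 of the 1246 AMCA-negative counts of rbp4l, so the call without it is no support for a difference. The sign of the fold change of rbp4l depended on the libraries used. Within plate 1 the log2 value was 11.38 and within plate 2 -2, neither past the test.

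Of the cellular retinol-binding proteins rbp5 was the most even member of the whole set across AMCA-positive libraries, at 57.9, 61.0, 36.0, 67.0 and 45.9 CPM, a 1.86-fold range. In AMCA-negative libraries rbp5 had 0.282, 2.86, 0, 1.51 and 0 CPM. Over both plates the log2 fold change of rbp5 was 5.98 ± 1.28 (SE; adjusted p = 0.00666 by edgeR), with 5.08 within plate 1 (not past the test) and 6.53 within plate 2. By contrast rbp2a stood at 1.07 and 1.00 CPM in the 2 AMCA-positive libraries of plate 1 and at 28.7, 25.5 and 34.6 CPM in the 3 of plate 2. No AMCA-negative library held a count of rbp2a, at least 136-fold higher, and it was left out by the filter (edgeR adjusted p = 0.00622 with the filter on the design). A further gene of this class, rbp7b, had 0, 11.5, 21.0, 4.15 and 21.3 CPM in AMCA-positive libraries and 1 AMCA-negative count (ratio 260-fold, 95% counting interval 46.3 to 10286; edgeR adjusted p = 0.0121 with the filter on the design). For rbp2b, with no count in any library, 3 counts over a group would be 0.0934 CPM on the AMCA-positive side and 0.134 CPM on the other.

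AMCA-positive libraries differed among themselves more in some members than in others, and the differences followed the plates in part. The highest of the 5 libraries was 3.62 times above the lowest in cyp26b1, 5.51 times in crabp1a and 3.65 times in rbp4. Yet crabp1a and cyp26b1 kept close to each other: the ratio of their counts was 1.43, 1.22, 0.941, 1.38 and 1.23, a 1.52-fold range, which does not depend on gene length when libraries are compared. The ratio of rbp4 to cyp26b1 counts was 0.0597 and 0.0872 on plate 1 and 0.555, 0.307 and 0.293 on plate 2, a 9.30-fold range. The mean level on plate 2 was 0.549 times that on plate 1 for cyp26b1 and 0.502 times for crabp1a. It was 2.64 times for rbp4, 5.35 times for dhrs3a, 7.90 times for crabp2a and 28.7 times for rbp2a. None of these plate differences passed across all genes. With edgeR 0 of 9094 genes were called (0.0%), and 68 genes had an unadjusted p under 0.05. Among them rbp4 was the only member (log2 difference of plate 2 over plate 1 in AMCA-positive libraries 1.40 ± 0.35 SE, edgeR unadjusted p = 0.00275). The main filter had left out crabp2a and rbp2a, which were tested with the filter on the design. There 0 of 10468 genes were called, and rbp2a also had an unadjusted p under 0.05 (edgeR unadjusted p = 0.0201). Plates 1 and 2 hold 4 and 6 libraries, and the 2 sorts gave 4 and 6 libraries too, but the labels do not tie a plate to a sort, and sort and plate cannot be told apart.

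**Figure D3:**
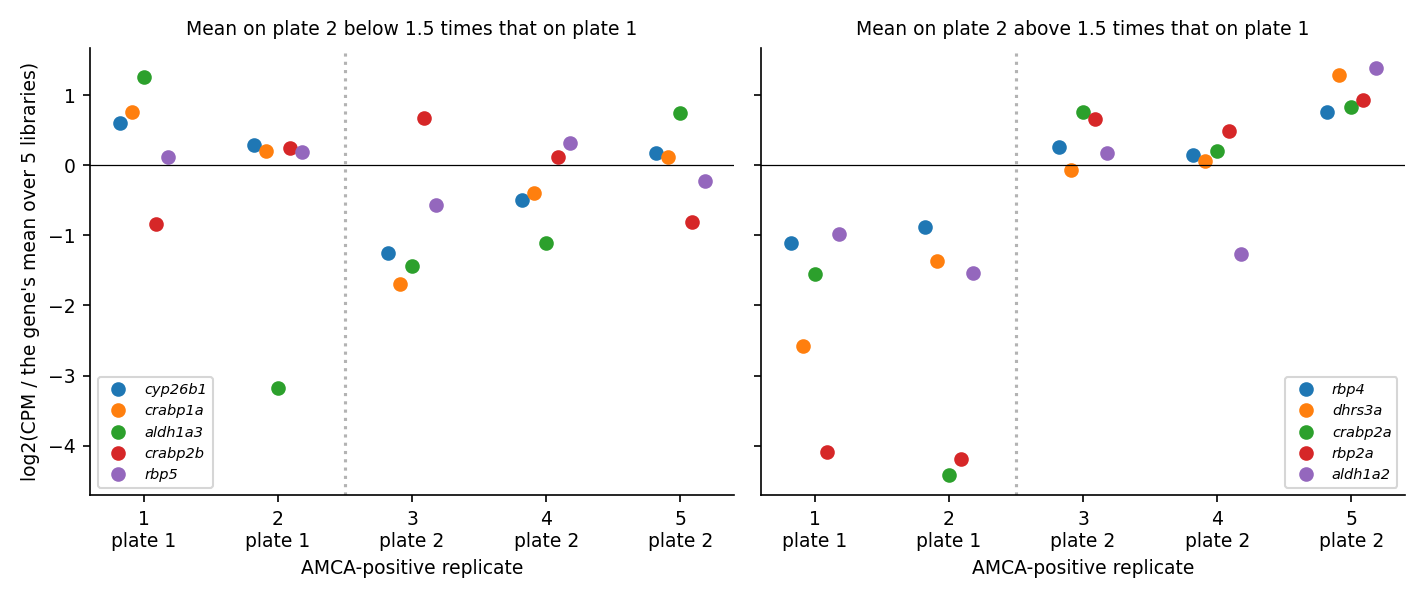
Level of 10 members in each AMCA-positive library, as log2 of the CPM over that gene's mean of 5 libraries, with the dotted line between plates 1 and 2. In the left panel cyp26b1 and crabp1a move together and are lowest in replicate 3; in the right panel rbp2a stands at 1.07 and 1.00 CPM on plate 1 and between 25.5 and 34.6 CPM on plate 2.

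The same ratios in AMCA-negative libraries separated crabp1a from the other 2 abundant members. There the ratio of crabp1a to cyp26b1 counts was 35.0, 90.2, 6.47, 3.61 and 2.1, so every AMCA-negative library was above every AMCA-positive one, whose highest ratio was 1.43. The ratio of rbp4 to cyp26b1 counts was 0.5, 0.444, 0.118, 0.167 and 0.400 in AMCA-negative libraries and overlapped with that of AMCA-positive ones. The AMCA-negative ratios rest on 9 to 18 counts of cyp26b1 and 2 to 6 of rbp4 per library, against 21 to 812 of crabp1a. The comparison was chosen after the values were seen, and no test was made.

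**Figure D4:**
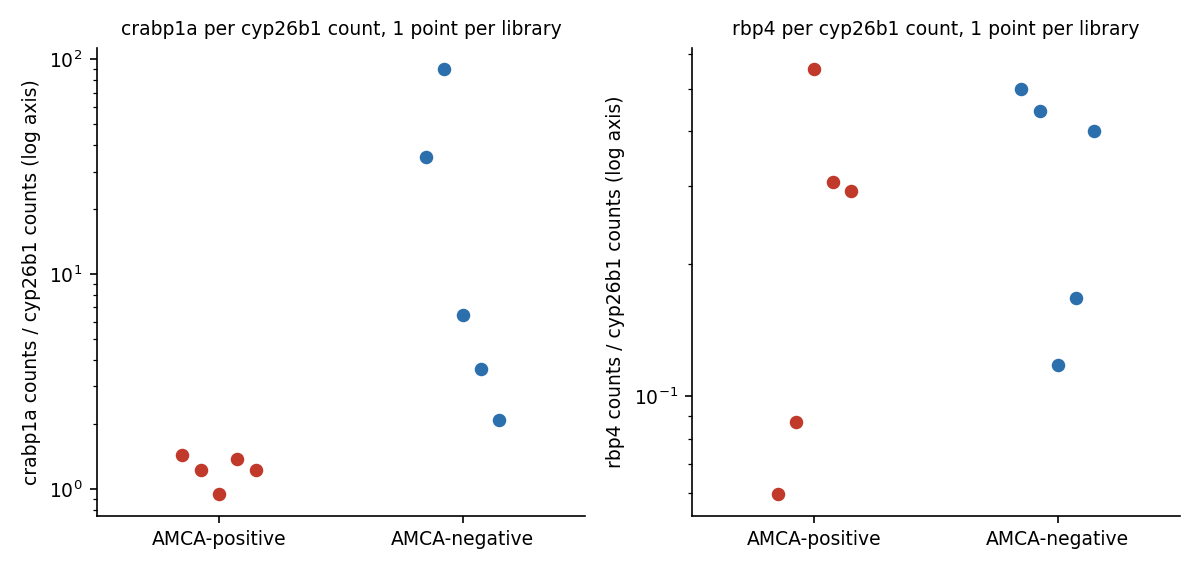
Counts of crabp1a (left) and rbp4 (right) per count of cyp26b1, 1 point per library, on log axes. The AMCA-negative libraries lie between 2.1 and 90.2 for crabp1a, above all AMCA-positive ones, and between 0.118 and 0.5 for rbp4, within the AMCA-positive range of 0.0597 to 0.555.

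Whether the difference between groups itself differed between plates was tested as an interaction. By edgeR 0 of 9094 genes passed (0.0%), while 906 genes had an unadjusted p under 0.05, and 5 members were among them. The smallest was that of rbp4, whose log2 fold change was larger on plate 2 by 2.39 ± 0.55 (SE; edgeR unadjusted p = 0.00165, adjusted p = 0.301), and the others were crabp1a, rbp4l, rdh10a and rdh12l.

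The genes whose levels across the 10 libraries were most like those of cyp26b1 were c1qb, lgals3bpb, si:dkey-226m8.7, si:ch211-251b21.1 and ptgdsb. Likeness was the root-mean-square difference of log2(CPM + 0.5), each gene centred on its own mean, and it was 0.843 for c1qb, 0.864 for lgals3bpb, 0.876 for si:dkey-226m8.7, 0.891 for si:ch211-251b21.1 and 0.939 for ptgdsb. The list holds a complement gene of macrophages (c1qb) beside a lipocalin-type prostaglandin D synthase gene (ptgdsb), and such a measure is set mostly by the difference between the groups. Of the members rbp4 came nearest, at rank 9 of 9093 genes with a difference of 1.08, and crabp1a was at rank 91.

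The genes next to the abundant members were looked up as well. In the RefSeq assembly GRCz12tu, used for gene order only, the protein-coding genes beside cyp26b1 are exoc6b and dysf. The mean of exoc6b was 78.4 CPM against 48.4 CPM in AMCA-negative libraries (edgeR adjusted p of exoc6b = 0.505), and dysf, too low to be tested, was at 0.533 and 1.47 CPM. Next to crabp1a lies sin3aa, a corepressor gene, at 206 against 85.2 CPM, and its difference of 1.17 ± 0.36 on the log2 scale passed (SE; adjusted p of sin3aa = 0.0400 by edgeR), although the groups overlapped. The gene fra10ac1 overlaps rbp4 in that assembly and was at 13.3 against 50.9 CPM (edgeR adjusted p of fra10ac1 = 0.205). Beside rbp4 lie cep55l and pde6c, both left out by the filter. For cep55l 110 AMCA-positive counts in 4 libraries and no AMCA-negative count were found, at least 26.0-fold higher. The mean of pde6c was 3.95 against 2.85 CPM. In all 6 members overlap another protein-coding gene in that assembly (aldh1a3, crabp1b, rbp2a, rbp4, rbp4l and rdh1), and reads in shared stretches cannot be assigned from these counts.

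Genes of the same pathway outside the set were looked at by lists. Of 40 entries for retinoid uptake, storage, carotenoid cleavage and related enzymes 33 were in the table and 21 were tested; 7 were higher and none lower (10 and 1 at an unadjusted p under 0.05), against 13.1% higher over all genes tested. Of the 21, 18 had passed the filter through AMCA-positive libraries alone, where 20.1% of genes were higher. The list's median log2 fold change was 5.03. Genes that passed that way could hardly be lower, so these counts and the median are no support for a difference. The smallest adjusted p was that of cyp27c1, whose product converts vitamin A1 to A2 in zebrafish. In AMCA-positive libraries cyp27c1 stood at 106, 132, 68.5, 118 and 153 CPM, and 2 counts were found in all AMCA-negative ones (ratio of cyp27c1 1284-fold, 95% counting interval 355 to 10610; edgeR adjusted p = 2.49e-05). The retinol dehydrogenase gene dhrs9 stood at 86.9, 105, 96.7, 113 and 108 CPM, with 2 AMCA-negative counts (ratio of dhrs9 1140-fold, 95% counting interval 315 to 9419; edgeR adjusted p = 1.37e-04). Levels of dhrs9 were therefore close in all AMCA-positive libraries.

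Relatives of the retinoid isomerase of the eye rose as well. The level of rpe65b was 38.4 ± 18.9 CPM against 0.610 ± 0.769 (SD, n = 5), and the difference for rpe65b was 6.27 ± 0.98 on the log2 scale (SE; adjusted p = 0.00130 by edgeR). For rpe65c it was 28.4 ± 9.24 CPM (SD, n = 5) against 1 count (ratio of rpe65c 636-fold, 95% counting interval 114 to 25151; edgeR adjusted p = 8.96e-04). The other 3 that passed, named after their values were seen, were zgc:194355, listed in RefSeq as lratb.2 of the retinol-esterifying enzyme family, the carotenoid-cleaving oxygenase gene bco1 and the aldose reductase gene akr1b1. No AMCA-negative count was found for zgc:194355, at least 151-fold higher, or for bco1, at least 47.0-fold higher. The Rbp4 receptor gene stra6, likewise named afterwards, stood at 14.5, 16.3, 28.9, 27.2 and 14.5 CPM in AMCA-positive libraries. It did not pass, with 38.6 CPM in AMCA-negative replicate 1 and at most 0.660 in the others (edgeR adjusted p of stra6 = 0.244).

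Of 10 receptor and cofactor genes tested 2 were higher and none lower (3 and 1 at an unadjusted p under 0.05), a share near that of all genes tested (13.1% higher). Of the 10, 6 had passed the filter through AMCA-positive libraries alone, where 20.1% of genes were higher. These included rxrgb, a retinoid X receptor gene at 26.6 ± 17 against 0.277 ± 0.440 CPM (SD, n = 5; log2 fold change of rxrgb 6.83 ± 1.37 SE, edgeR adjusted p = 0.00455). Among those that did not pass, next in order of p came rxrba, at 6.86 against 44.5 CPM, and rxrga, at 35.2 against 2.69 CPM, neither past the test (edgeR adjusted p = 0.134 and 0.139). The retinoic acid receptor genes did not pass: raraa was at 10.1 ± 3.94 against 5.80 ± 7.37 CPM (SD, n = 5; edgeR adjusted p = 0.698). The level of rarab was 5.49 ± 4.10 against 3.66 ± 7.82 CPM (SD, n = 5; edgeR adjusted p = 0.574), and that of rarga was 17.9 ± 8.82 against 6.98 ± 11.8 CPM (SD, n = 5; edgeR adjusted p = 0.403). In rargb 1 count was found in all libraries together.

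Of 27 genes known from embryos or other tissues to respond to retinoic acid 25 were in the table and 9 had enough counts to be tested. None passed by edgeR, with 2 at an unadjusted p under 0.05, both higher. The median log2 fold change of the 9 was 1.93, against 0.51 over all genes tested. Of the 9, 7 had passed the filter through AMCA-positive libraries alone, so the median is no support for a difference. By DESeq2 3 of the 24 with a count were higher, against 21.3% of all genes with a count. Genes to which DESeq2 gave no adjusted p stand there as not higher. By limma-voom with quality weights it was 3 of 9, against 26.9%. The 4 with the smallest adjusted p were mafba (165 against 15.9 CPM, edgeR adjusted p of mafba = 0.0532), nr2f2 (35.7 against 1.69 CPM, edgeR adjusted p of nr2f2 = 0.0710), egr2b (58.1 against 15.3 CPM, edgeR adjusted p of egr2b = 0.348) and dusp6 (198 against 104 CPM, edgeR adjusted p of dusp6 = 0.354). No AMCA-positive count was found for hoxa1a, hoxb1a, hoxb1b, hoxb5b, hoxb6b or tgm2a.

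**Figure D5:**
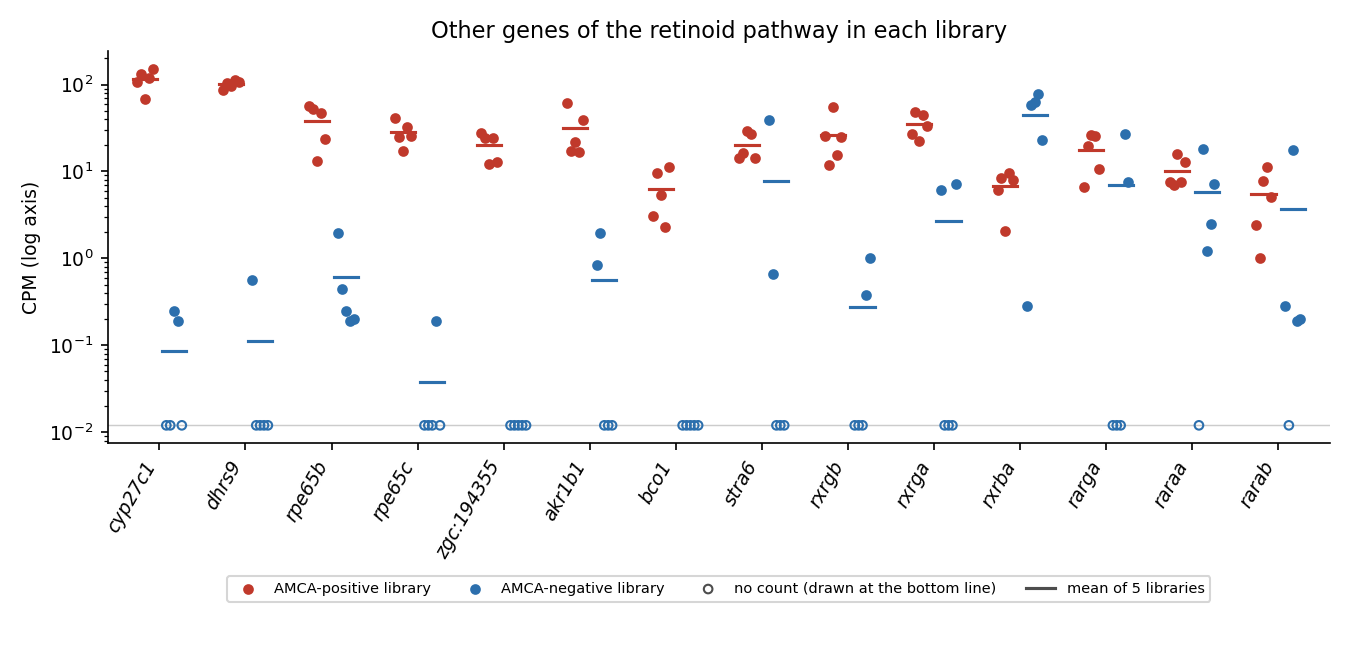
CPM of 14 further genes of the retinoid pathway in each library on a log axis, drawn as in the plot of the members by library. The AMCA-positive libraries of cyp27c1 (68.5 to 153 CPM) and dhrs9 (86.9 to 113 CPM) lie close together and far above the AMCA-negative ones, while the groups overlap in raraa, rarab and rarga.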

How the data were processed

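The authors deposited raw counts per gene and library, whole numbers by their column names and values. The authors' deposited normalized signal differs from those counts by a constant factor for each library and was checked only. The authors' deposited log2 fold changes and adjusted p-value column compare AMCA-positive with AMCA-negative cells and were used for the call on cyp26c1. Genome build danRer10 and the tools TopHat2 2.0.13, HTSeq, cutadapt and DESeq2 are listed, per the submitters' processing notes, with no role, annotation or strand setting. Sorted cells were lysed in plates and their cDNA was amplified, per the labels' protocols.

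Counts were fitted with edgeR 4.0.16 in R 4.3.3 on the whole table (TMM, filterByExpr on the group with a minimum count of 10, two-sided robust quasi-likelihood F test on plate and group) and adjusted by Benjamini-Hochberg with a threshold of 0.05. SE is the error implied by the F statistic. A fold against no count uses a floor of 3 counts over the group; 1 to 3 counts give a ratio of summed counts with an exact 95% interval. The fit was tested on simulated data with known changes. Those data held no plate effect and no change as large as that of cyp26b1, so they do not cover such cases. Replicates are numbered in sample order and were not used as pairs; each pool gave 1 library of each kind, but the labels do not say which libraries share a pool, so p-values measure the spread between libraries. No transcript lengths were used, so words such as abundant, high or low for different genes rest on CPM without a correction for length. The members and lists were chosen with earlier results of these data known. Library values are given for members that passed or had a mean of at least 10 CPM in a group; up to 4 genes per further list are named by adjusted p, with the retinoic acid receptors, and the 5 genes most like cyp26b1. Of 219 list entries 35 were not found by name, and 9 were found by a RefSeq synonym. Some genes of the set and lists are counted but not reported here by name. Alternatives used limma 3.58.1 and DESeq2 1.42.0.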

Additional observations from a re-analysis of the deposited data

Results flagged for a closer look

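In 31 groups of 5 libraries the highest or lowest library was compared with its nearest neighbour. In 7 the gap took more than 0.71 of the whole range. For normally distributed values such a gap is found in about 1 group in 20. Several of these groups hold libraries with no count, so the rate to be had by chance here is not known. In AMCA-negative replicate 4 the level was 235 CPM for rbp4l, with the next library at 0.202, 12.1 CPM for rdh14a, with the next at 0.220, and 2.83 CPM for aldh1a2, with the next at 0.282. In AMCA-negative replicate 3 rdh12l stood at 35.8 CPM, with the next at 0.282. In AMCA-negative replicate 1 rdh10a stood at 5.64 CPM, with the next at 0.220, and in AMCA-negative replicate 2 aldh1a3 stood at 2.42 CPM, with the next at 0.282. Among AMCA-positive libraries replicate 2 stood apart in rdh12l, at 303 CPM with the next at 94.2. The causes were not tested.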

How the results depend on the processing

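Against 9 of 15 members higher in the report (13.1% of all genes) there were 15 of 24 by the DESeq2 Wald test (21.3%), 14 of 24 with no filter (11.5%), 14 of 20 with the filter on the design (16.2%; added after the data were seen), 14 of 20 without AMCA-negative replicates 1 and 3 together (15.9%) and 3 of 17 within plate 1 (0.309%), with 2 libraries per group. Leaving out 1 library gave 9 to 14 members, with 14 of 18 without AMCA-negative replicate 4 (16.8%). The DESeq2 shares are of all genes with a count. Genes to which DESeq2 gave no adjusted p, such as rbp4l, rdh12l and rdh14a, stand there as not higher. No alternative called a member lower. Members found almost only in AMCA-positive libraries could hardly be lower, so these counts are no support for a difference. Of 324 single-gene results 8 calls were lost and 7 gained, and no call turned in direction: cyp26b1 and rbp4 passed under all 22 alternatives, crabp1a under all but limma-voom with quality weights, and the other 6 called members failed within plate 1, aldh1a2 also within plate 2. By limma-voom cyp26b1 passed close to the threshold (limma adjusted p = 0.0400). Taking neighbouring wells as a block, which the labels do not state to be pairs, gave 10 of 15 members higher (13.8%), with rdh12l as the gain.

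In the uptake and storage list, with 7 of 21 higher in the report, 15 of 33 were higher and 1 lower by DESeq2. Of all 13723 genes with a count DESeq2 called 21.3% higher and 912 genes lower. By limma-voom with quality weights 14 of 21 were higher (26.9% of all genes). In the receptor list, with 2 of 10, 4 of 13 were higher (21.3%) and 1 lower by DESeq2 and 5 of 10 higher by limma-voom (26.9%). Of the responsive genes, with 0 of 9, 1 of 9 was higher with DESeq2 size factors (14.3%) and 3 of 24 by DESeq2 (21.3%). It was 3 of 9 by limma-voom (26.9%) and 1 of 24 with no filter (11.5%). Most genes tested in these lists passed the main filter through AMCA-positive libraries alone, so these counts are no support for a difference. The causes were not tested. The median log2 fold change of all genes tested was 0.51 with TMM, 0.66 with DESeq2 size factors, 0.40 with TMM without red cell genes, 1.49 by limma-voom and 1.37 with the wells as a block. Scaling to all counts moved none of 18 levels by more than their SD. Levels per coding length were not run, since no coding lengths were used.
Replicate numbers follow sample order and were not used as pairs.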
